A study of Homo sapiens with 6 samples.

Results

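The 38 genes described here encode the cytosolic and mitochondrial protein-folding machinery: heat shock factors, heat shock proteins (HSPs) with their co-chaperones (24 genes), the CCT chaperonin (8 genes) and prefoldin (6 genes). They were taken by gene symbol from the 63643 rows of the count table, and each symbol matched 1 row. The RNA came from HEK293T, a human cell line derived from embryonic kidney, with GLO1 deleted. GLO1 encodes glyoxalase 1, the first enzyme that detoxifies methylglyoxal (MGO), a reactive by-product of sugar breakdown. Both groups carry the deletion. The group MGO (3 libraries) received 60 µM MGO for 4 h, and the group Control (3 libraries) was left untreated. This dose is the one in the treatment text. The names of the MGO libraries hold another number, which the labels leave unexplained. The labels do not say whether the deleted line is 1 clone or which part of the gene is missing. The study used the comparison to ask whether MGO changes transcripts of the integrated stress response.

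Chaperones bind unfolded or newly made proteins and help them fold without clumping. HSP70 proteins hold short exposed stretches in cycles of ATP hydrolysis that HSP40 (J domain) proteins start and that nucleotide exchange factors such as the HSP110 proteins end, and HSP90 acts later on more folded clients with a set of co-chaperones. Prefoldin catches new actin and tubulin chains and hands them to CCT, a double-ring chaperonin in which each ring is built of 8 different subunits. Under proteotoxic stress, heat shock factor HSF1 is known to form trimers that bind repeats of the letters GAA in alternating orientation, the heat shock element, and to raise the transcription of many HSP genes.

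Total counts lay between 128270160 and 138680220 in MGO libraries and between 117427883 and 157639431 in Control libraries. Levels are given as CPM, counts scaled to a common library size after edgeR's TMM adjustment, which assumes that most genes do not change. GLO1 itself had counts in every library, at 97.3 to 106 CPM in MGO and 36.27 to 37.95 CPM in Control, and since all samples are labelled as deleted this checks neither the deletion nor the groups. Summed over 9 epithelial and kidney-line markers, the level was 2420 to 2720 CPM in MGO and 1170 to 1222 CPM in Control. KRT8 and VIM had the highest means, 981 and 699 CPM in MGO. Of the 8 tested markers 6 were raised (among them KRT8, KRT18, KRT19 and VIM) and 2 lowered (CDH1, log2 fold change −1.56, and CDH2, −1.37). Of all genes tested, 38.8% were raised and 40.5% lowered. The 5 blood cell markers summed to 0.175 to 0.800 CPM. The 5 fibroblast markers summed to 5.21 to 5.78 CPM in MGO and 14.2 to 15.4 CPM in Control, and 4 of them had a mean under 1 CPM. The part of these marker differences in the results below was not tested. Nothing in the labels says that replicates were separate cultures, so the p-values cover the spread among these 6 samples alone, and that spread may be technical. In bulk RNA, fewer cells expressing a gene and less RNA per cell cannot be told apart.

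Members rose more often than they fell. Of 35 members with enough counts for the test, 28 were higher in MGO, 5 were lower and 2 did not pass an edgeR adjusted p of 0.05. The background has to be read beside these counts, because 79.3% of all 23109 genes tested passed the same threshold, 38.8% as raised and 40.5% as lowered. The median log2 fold change of the 35 members was 0.85, and that of all genes tested was −0.02. The same split held for overlap: all 3 MGO libraries lay above all 3 Control libraries for 28 members and below them for 5. Of all genes tested, 81.5% had no overlap, 39.7% with MGO higher and 41.8% with MGO lower. A rise of at least 1 on the log2 scale was seen in 13 members and 20.9% of all genes tested, and a fall of that size in 0 members and 25.8% of all genes. Scaling by library size alone gave 24.5% of all genes raised and 55.8% lowered and moved the median of all genes to −0.55, so the directions below are relative to the scaling.

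**Figure D1:**
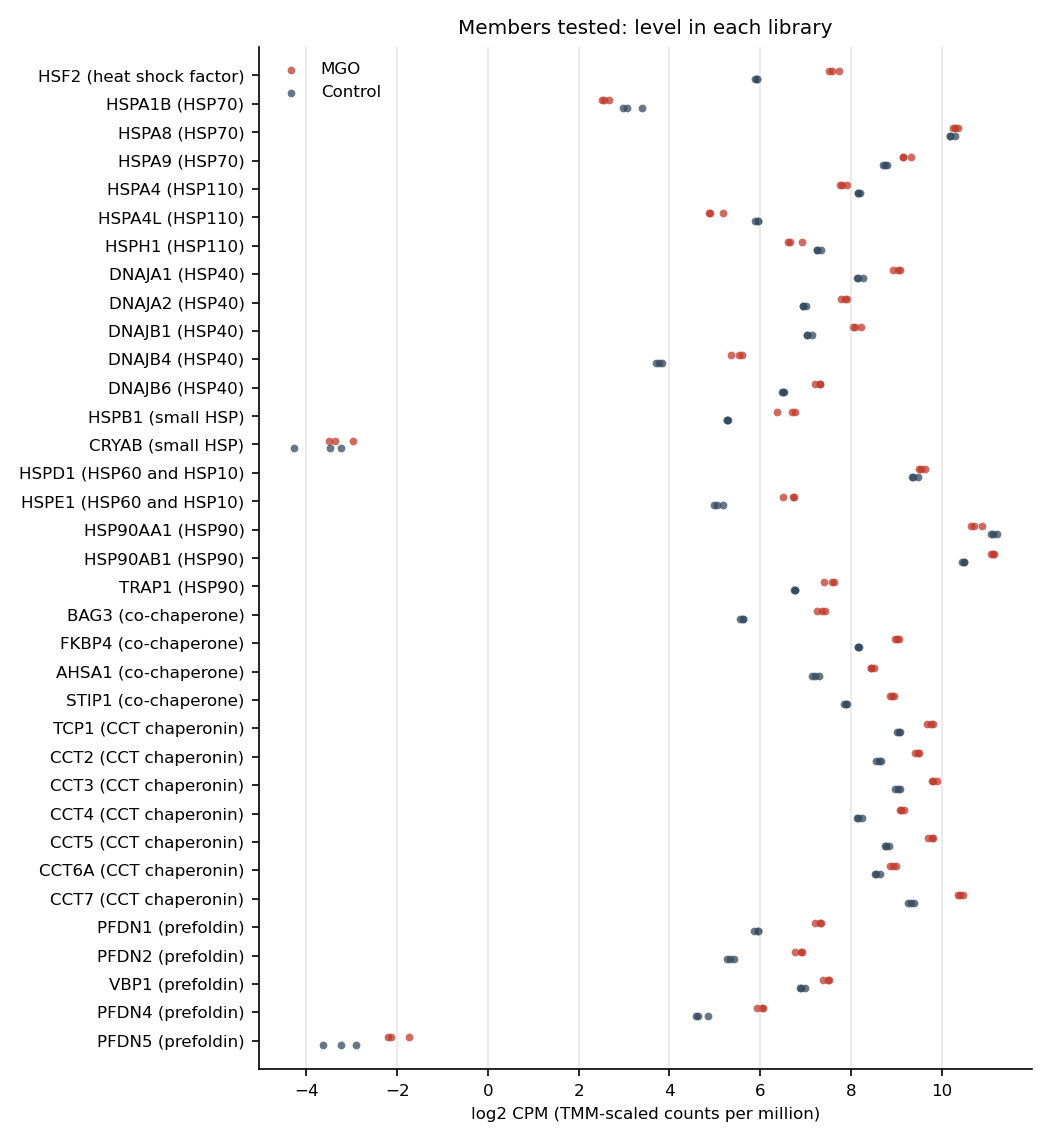
Level of each of the 35 tested members in each library, as log2 CPM on the horizontal axis, with MGO libraries in red and Control libraries in grey, and the member's role in parentheses. The colours separate for every member except HSPA8 and CRYAB, and MGO lies to the left for HSPA1B, HSPA4, HSPA4L, HSPH1 and HSP90AA1.

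Some members had almost no counts. HSF1 had 1 count over all 6 libraries, in Control replicate 2. CCT8, which encodes the theta subunit of CCT, also had 1 count in all, in MGO replicate 3, and PFDN6, a beta-type prefoldin subunit, had 4. These 3 members were not tested and no fold is given for them. CCT and prefoldin need all their subunits, and HSF1 and CCT8 are used by most cells, so these values are not read as absent expression. PFDN5 and the small HSP gene CRYAB passed the test's filter with only 138 and 76 counts in all. To see whether reads could be shared between genes, the 100-base words of each member's longest coding transcript in GENCODE release 29 were looked up in the transcripts of all other genes. None of the 1906 words of CCT8 and none of the 748 words of PFDN5 occurred elsewhere. For HSF1 the share was 1.96%, with words that also occur in DGAT1, and for PFDN6 it was 31.1%, with words shared with the antisense neighbour RGL2. The sources used here do not give the annotation the authors counted against, so overlaps in it were not tested.

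The heat shock factors could be followed only through HSF2. This developmental factor, which also pairs with HSF1, lies on chromosome 6 (122399546 to 122433119, GRCh38). Its level was 213, 192 and 182 CPM in MGO replicates 1 to 3 and 61.4, 59.4 and 60.8 CPM in Control. Every MGO library was thus far above every Control library, a 3.23-fold rise (log2 fold change 1.69, SE 0.07, adjusted p = 4.35e-10).

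Heat shock elements were looked for in the 250 bases before each annotated start in RefSeq's promoter windows (GRCh38.p14), which held 33 of the 38 members (not HSF1, CRYAB, FKBP4, CCT6A and PFDN2). The letters searched were the 3-unit element GAANNTTCNNGAA or TTCNNGAANNTTC, which are each other's reverse complement, and the paired unit GAANNTTC, which reads the same on both strands and is part of both. The other paired unit, TTCNNGAA, also part of both and the same on both strands, and TATAAA on the gene's strand were searched too. The 3-unit element stood before 5 members and before 0.557% of the 27305 genes with a window (0.441% of windows), and GAANNTTC before 12 members and 7.05% of genes. TTCNNGAA stood before 7 members and 8.12% of genes: the same 5 members, DNAJB4 (98 bases before its start, log2 fold change 1.73) and HSPA4L (170 bases, −0.94). TATAAA stood before 3 members (HSF2, HSPA1B and HSPA4L) and 8.38% of genes. The sequences below show those 5 members, because they include both HSP90 genes, which went in opposite directions, and 3 others with GAANNTTC. Members with GAANNTTC that are not shown are DNAJA1 (log2 fold change 0.83), TCP1 (0.70), CCT2 (0.85) and PFDN6 (not tested). Capitals mark the matched letters, and each stretch is written 5′ to 3′ on the gene's strand.
HSP90AA1 (chr14:102087112-102087140, minus strand, element from 88 bases before the start): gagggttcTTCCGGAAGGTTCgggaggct
HSP90AB1 (chr6:44247758-44247863, plus strand, elements from 165 and 112 bases before the start): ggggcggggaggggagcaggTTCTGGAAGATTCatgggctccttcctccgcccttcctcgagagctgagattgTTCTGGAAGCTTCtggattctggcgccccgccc
HSPA8 (chr11:123062171-123062199, minus strand, element from 55 bases before the start): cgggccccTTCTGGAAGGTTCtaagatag
HSPA8 (chr11:123062346-123062374, minus strand, element from 230 bases before the start): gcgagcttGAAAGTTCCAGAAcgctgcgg
HSPD1 (chr2:197500061-197500090, minus strand, overlapping elements from 245 bases before the start): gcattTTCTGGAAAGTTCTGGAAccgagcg
DNAJB6 (chr7:157336853-157336905, plus strand, element from 131 bases before the start): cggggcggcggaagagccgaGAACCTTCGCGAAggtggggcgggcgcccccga
DNAJB1 (chr19:14518421-14518490, minus strand, paired units from 77 and 47 bases before the start): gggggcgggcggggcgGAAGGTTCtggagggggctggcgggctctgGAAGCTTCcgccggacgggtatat
HSPA1B (chr6:31827613-31827660, plus strand, paired unit from 105 bases before the start): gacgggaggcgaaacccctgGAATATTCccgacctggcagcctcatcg
HSPB1 (chr7:76302471-76302518, plus strand, paired unit from 182 bases before the start): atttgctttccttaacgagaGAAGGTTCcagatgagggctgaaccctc
The 5 members with the 3-unit element did not move together. Their log2 fold changes were −0.39 for HSP90AA1, 0.65 for HSP90AB1, 0.08 for HSPA8 (not past the threshold), 0.16 for HSPD1 and 0.77 for DNAJB6. BAG3 and HSF2, with 2 of the 3 largest rises among members, had neither the 3-unit element nor either paired unit in these windows, which says only that these letters are not there. A match is a description of the sequence and not a shown binding site. The HSPA8, HSP90AA1 and HSPD1 stretches lie wholly in annotated exons (for HSPD1 also of HSPE1). The other stretches shown above lie in none. The HSPD1 elements stand between its start at 197499840 and the HSPE1 start at 197500379, downstream of the other HSPD1 start (197500274). They are more than 250 bases before the HSPE1 start, so HSPE1 (log2 fold change 1.59) is not counted among the 5 members.

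Of the 3 HSP70 genes 1 rose (HSPA9), 1 fell (HSPA1B) and 1 did not pass the threshold (HSPA8). HSPA8, the constitutive cytosolic HSP70 also called HSC70, stood at 1221, 1304 and 1246 CPM in MGO and at 1260, 1165 and 1153 CPM in Control. These groups overlap, and the log2 fold change of 0.08 (SE 0.07) did not pass the threshold (adjusted p = 0.294). Under library size alone it was −0.45 (adjusted p = 3.86e-05) and under upper quartile scaling 0.25 (adjusted p = 0.00655), so no direction is given for it. HSPA9, the mitochondrial HSP70 that pulls imported proteins into the matrix, was at 431 ± 12.5 CPM (SD, n = 3) in Control and 591 ± 39.1 CPM in MGO. It rose by 0.46 on the log2 scale (SE 0.07). This became −0.07 under library size alone and 1.05 (adjusted p = 5.56e-10) with each library's trend on transcript length and GC content removed. Below, removal of the length trend stands for this joint removal, whose length and GC parts were not separated.

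HSPA1B, a stress-inducible cytosolic HSP70, was among the lowest members with 5.69, 6.37 and 5.92 CPM in MGO. In Control it was higher in every library, at 10.6, 8.36 and 7.89 CPM (log2 fold change −0.58, SE 0.11, adjusted p = 0.000388). It lies beside a near-identical copy, HSPA1A, on chromosome 6. Of the 100-base words of HSPA1B, 72.7% also occur in HSPA1A or in the overlapping transcript AL671762.1. HSPA1A was listed with 1, 6 and 5 counts in MGO and 5, 10 and 4 in Control, too few for the test. The level and the fall of HSPA1B therefore rest on the part of its reads that counting kept, and are uncertain. HSPA6, another HSP70 gene that is silent in most unstressed cells, was under 1 CPM throughout, at 0.304 ± 0.0972 CPM in MGO and 0.538 ± 0.0282 CPM in Control (log2 fold change −0.82, SE 0.23, adjusted p = 0.00533).

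All 3 HSP110 genes fell (median −0.54 on the log2 scale). These proteins exchange the nucleotide of HSP70 and take part in pulling aggregates apart. HSPA4L (chromosome 4, 127781821 to 127840733) had the largest fall of the members under TMM scaling, from 58.7, 61.9 and 61.7 CPM in Control to 36.0, 29.3 and 29.9 CPM in MGO (log2 fold change −0.94, SE 0.08, adjusted p = 3.09e-07). HSPH1 went from 156 ± 5.04 to 107 ± 12.8 CPM (−0.54, SE 0.08), and HSPA4 from 289 ± 6.37 to 228 ± 13.3 CPM (−0.34, SE 0.06). Their groups did not overlap. With each library's trend on transcript length and GC content removed, HSPA4L and HSPA4 were still lower (−0.72 and −0.49), whereas HSPH1, whose transcripts have a median of 4278.5 nt, turned to 0.20 (adjusted p = 0.00352). The removal used median annotated lengths, 3020 nt for HSPA4L and 2358 nt for HSPA4. Their longest coding transcripts have 10790 and 4825 nt. Which transcripts these cells use, and a removal on the longest ones, was not tested, so this contrast with HSPH1 depends on the lengths taken.

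All 5 HSP40 genes rose, with a median log2 fold change of 0.89. DNAJB4, a cytosolic J domain protein, had the largest rise among them, from 13.6, 14.2 and 13.1 CPM in Control to 48.4, 46.5 and 41.0 CPM in MGO (3.32-fold, log2 fold change 1.73, SE 0.08, adjusted p = 7.52e-10). DNAJB1, the HSF1-inducible HSP40, rose from 140, 131 and 132 CPM to 263, 299 and 270 CPM (2.06-fold, log2 fold change 1.05, SE 0.07). The remaining 3 rose by similar amounts. DNAJA2 and DNAJA1, which work with HSC70 on general folding, rose by 0.89 and 0.83, and DNAJB6, which keeps polyglutamine proteins from aggregating, by 0.77. All 5 were also higher under library size alone (0.24 to 1.21) and with the length trend removed (0.21 to 2.15).

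The 2 small HSPs were far apart in level. HSPB1 (HSP27), which holds unfolded proteins without using ATP, rose 2.56-fold, from 38.3, 38.9 and 38.4 CPM in Control to 82.6, 105 and 109 CPM in MGO (log2 fold change 1.36, SE 0.09). MGO replicate 1 was the lowest of its group, and all MGO libraries were above Control. Its transcripts are short (median 718 nt) and have 62.2% GC. The log2 fold change of HSPB1 was 0.38 with the trend on length and GC content removed. CRYAB (alpha B crystallin) had 9 to 17 counts in a library and 0.104 ± 0.0206 CPM in MGO against 0.0823 ± 0.0275 CPM in Control, with overlapping groups (adjusted p = 0.41).

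The mitochondrial chaperonin pair split in size of change. HSPD1 (HSP60) and its lid HSPE1 (HSP10) lie head to head on chromosome 2, with starts 105 and 539 bases apart in RefSeq, depending on the HSPD1 start. HSPE1 rose 3.02-fold, from 36.1, 31.4 and 32.9 CPM to 90.7, 107 and 105 CPM (log2 fold change 1.59, SE 0.08, adjusted p = 2.09e-09). HSPD1 stood at 789, 750 and 719 CPM in MGO and at 708, 649 and 660 CPM in Control. The groups do not overlap by a narrow margin, and the log2 fold change was 0.16 (SE 0.07, adjusted p = 0.0367). This call was lost without MGO replicate 2 (adjusted p = 0.0666), Control replicate 2 (0.156) or Control replicate 3 (0.152), and library size alone turned it to −0.36. The ratio of HSPD1 to HSPE1 compares both genes inside 1 library. On the log2 scale with 1 CPM added, it was 3.11, 2.80 and 2.76 in MGO and 4.26, 4.33 and 4.28 in Control. The ratio fell by 1.40 (exact permutation test, two-sided p = 0.1, the smallest that 3 against 3 libraries allow). Of the 100-base words of HSPE1, 33.5% also occur in HSPD1, HSPE1-MOB4 or HSPE1 pseudogenes, and HSPE1 transcripts have a median of 570 nt against 2377 nt for HSPD1. With the trend on length and GC content removed, HSPE1 rose by 0.71 and HSPD1 stood at 0.041 (adjusted p = 0.431). The call of HSPD1 was thus lost there too.

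The 2 cytosolic HSP90 genes had the highest CPM of all members and moved in opposite directions. HSP90AA1 (chromosome 14, 102080738 to 102139699), the stress-inducible cytosolic form, had 1887, 1685 and 1599 CPM in MGO and 2377, 2179 and 2238 CPM in Control. All MGO libraries were lower (log2 fold change −0.39, SE 0.08, adjusted p = 0.000384). HSP90AB1 (chromosome 6, 44246166 to 44253888), the constitutive cytosolic form, had 2292, 2249 and 2158 CPM in MGO and 1434, 1391 and 1443 CPM in Control, so that all MGO libraries were higher (log2 fold change 0.65, SE 0.06, adjusted p = 7.01e-07). The inducible form led in Control and the constitutive form in MGO, also per kb of transcript: HSP90AA1 went from 658 to 501 CPM per kb and HSP90AB1 from 545 to 855 CPM per kb. The log2 ratio of HSP90AA1 to HSP90AB1 was 0.73, 0.65 and 0.63 in Control libraries and −0.28, −0.42 and −0.43 in MGO libraries, a difference of −1.05 (exact permutation test, two-sided p = 0.1, the smallest possible). Under library size alone the log2 fold changes were −0.92 and 0.13, the latter not past the threshold (adjusted p = 0.0747). With the length trend removed HSP90AA1 turned to 0.055 (adjusted p = 0.381) and HSP90AB1 stood at 0.71, so the order of the changes held while the fall of HSP90AA1 did not. TRAP1, the mitochondrial HSP90, rose by 0.78 on the log2 scale (SE 0.07), with 185 ± 14.8 CPM in MGO and 108 ± 1.05 CPM in Control.

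All 4 co-chaperones rose, with a median log2 fold change of 1.14. BAG3 (chromosome 10, 119651370 to 119677819), which couples HSP70 to small HSPs and to selective autophagy, had the highest log2 fold change of the members, within the errors of DNAJB4 and HSF2. With the length trend removed DNAJB4 led (2.15), ahead of HSF2 (1.66) and BAG3 (1.64). BAG3 was at 153, 172 and 166 CPM in MGO and at 46.6, 49.4 and 48.8 CPM in Control, a 3.39-fold rise (log2 fold change 1.76, SE 0.07, adjusted p = 2.24e-10). The other 3 act with HSP90. AHSA1, which speeds up its ATPase, rose 2.38-fold from 148 ± 8.31 to 353 ± 11 CPM. STIP1 (HOP), which links HSP70 to HSP90, rose 2.03-fold from 235 ± 5.05 to 477 ± 14.1 CPM, and the immunophilin FKBP4 rose 1.81-fold from 285 ± 2.55 to 517 ± 17.9 CPM. Each of the 4 was also raised under library size alone (0.33 to 1.23) and with the length trend removed (0.43 to 1.64).

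**Figure D2:**
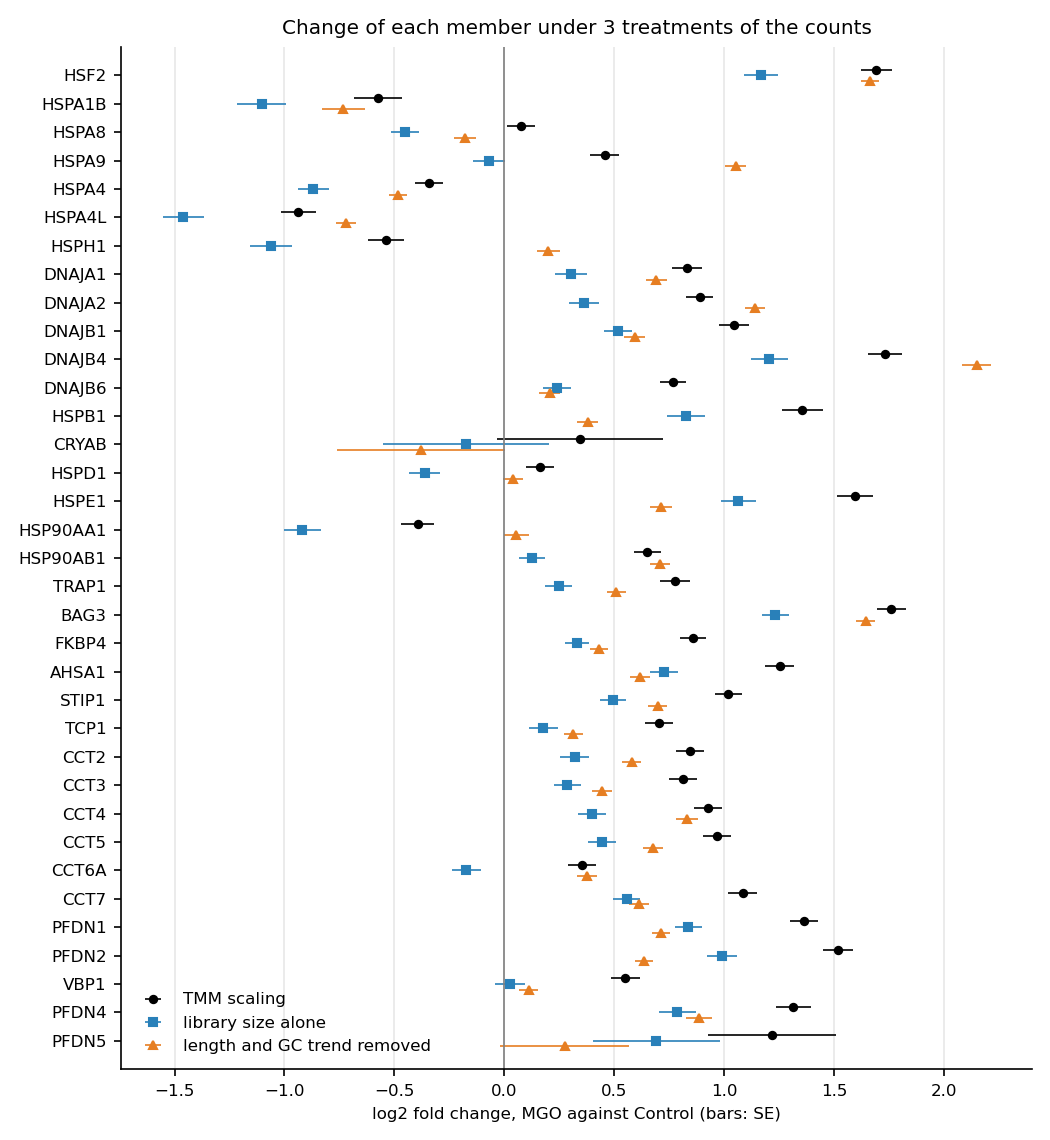
Log2 fold change of MGO against Control for each tested member, with its standard error as a bar, under TMM scaling (black), library size alone (blue) and removal of each library's trend on transcript length and GC content (orange). Members from DNAJA1 to DNAJB6 and from BAG3 to STIP1 lie right of 0 in all 3, while HSPA8, HSPA9, HSPH1, HSPD1, HSP90AA1, CCT6A and CRYAB change side.

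The 7 CCT subunits with counts all rose, by a median of 0.85 on the log2 scale. CCT7 (eta; chromosome 2, 73233420 to 73253021) rose most, from 674, 614 and 644 CPM in Control to 1312, 1427 and 1354 CPM in MGO (2.12-fold, log2 fold change 1.08, SE 0.07, adjusted p = 1.02e-08). CCT5, CCT4, CCT2, CCT3 and TCP1 (the epsilon, delta, beta, gamma and alpha subunits) followed at 0.97, 0.93, 0.85, 0.81 and 0.70, each with a standard error of 0.06. CCT6A (zeta) rose least, from 396, 371 and 377 CPM to 508, 489 and 465 CPM (log2 fold change 0.35, SE 0.06, adjusted p = 0.000218), and turned to −0.17 under library size alone. The other 6 stayed higher under that scaling (0.18 to 0.56), and all 7 did with the length trend removed, where CCT4 led (0.83), CCT7 stood at 0.61 and TCP1 was lowest (0.31). Under TMM scaling the spread of changes among subunits of 1 complex was 0.73 on the log2 scale, from CCT6A to CCT7. With the length trend removed the changes ran from TCP1 (0.31) to CCT4 (0.83), so size and ends of the spread depend on the processing.

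Per kb of transcript, CCT7 was the highest of the 7 subunits in all 6 libraries, at 367 to 402 CPM per kb in Control and 784 to 852 in MGO. The lowest was CCT4 in the Control libraries (118 to 128 CPM per kb) and CCT6A in the MGO libraries (177 to 194). The ratio of the highest to the lowest subunit was 3.11 to 3.20 in Control and 4.05 to 4.58 in MGO. Transcript lengths come from the annotation and not from these cells, so the levels per kb are approximate. Of the 100-base words of the longest CCT5 transcript, 46.4% also lie in the antisense transcript AC012640.4, and the sources used here do not give the strand setting of the counting.

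Prefoldin had the largest median change of the 3 families, 1.31 over 5 tested subunits, which all rose. PFDN2 (chromosome 1, 161100556 to 161118111), a beta-type subunit, rose from 42.7, 38.4 and 40.6 CPM in Control to 108, 120 and 120 CPM in MGO (2.86-fold, log2 fold change 1.52, SE 0.07, adjusted p = 9.15e-10). PFDN1 and PFDN4, also beta-type, rose 2.57-fold and 2.49-fold, to 156 ± 7.70 and 64.4 ± 3.16 CPM. VBP1, the alpha-type subunit also called PFDN3 that was found through its binding to the von Hippel-Lindau protein, rose least, from 126, 117 and 119 CPM to 184, 180 and 168 CPM (log2 fold change 0.55, SE 0.06). Under library size alone VBP1 stood at 0.025 (adjusted p = 0.748) and PFDN1, PFDN2 and PFDN4 at 0.79 to 0.99. With the length trend removed PFDN2 stood at 0.63, PFDN1 at 0.71, PFDN4 at 0.89 and VBP1 at 0.11 (adjusted p = 0.0332), and VBP1 no longer passed once the replicate block was added (adjusted p = 0.0619). PFDN5, the other alpha-type subunit, had 25, 34 and 25 counts in MGO and 15, 25 and 14 in Control (log2 fold change 1.22, SE 0.29, adjusted p = 0.00211), and this call was lost with the length trend removed (0.27, adjusted p = 0.405). Per kb, VBP1 was the highest subunit in Control (75.7 to 81.7 CPM per kb) and PFDN2 in MGO (160 to 178), and PFDN4 was the lowest of the 4 well-counted subunits in every library.

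**Figure D3:**
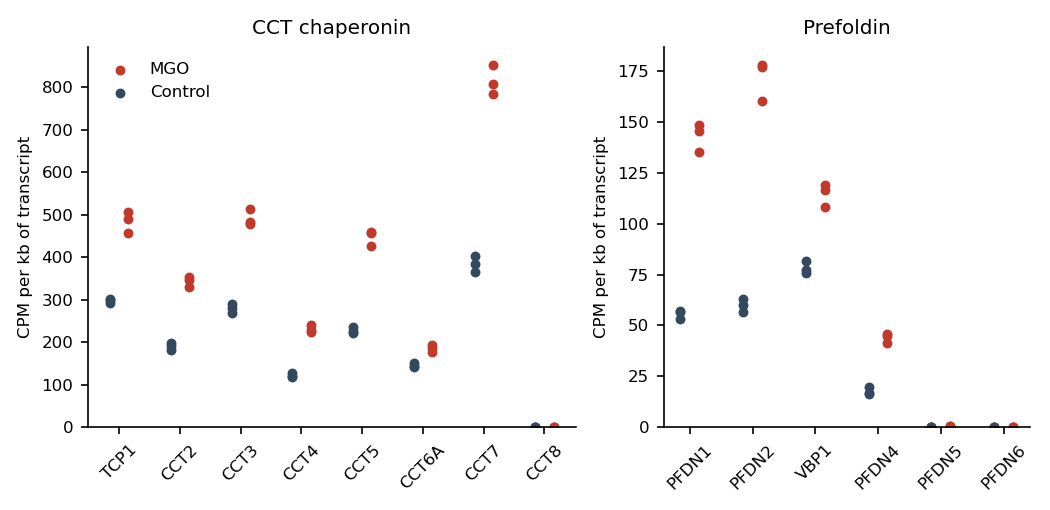
Level of each CCT subunit (left) and prefoldin subunit (right) in each library, in CPM per kb of transcript, with MGO libraries in red and Control libraries in grey. CCT7 is highest and CCT8, PFDN5 and PFDN6 lie at or near 0 in both groups.

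The 3 families differ in transcript length, and fold changes in these libraries followed it. Median log2 fold changes over all genes tested were 0.53 for transcripts under 1000 nt, 0.47 from 1000 to 2000 nt, 0.04 from 2000 to 3000 nt, −0.42 from 3000 to 4000 nt and −1.17 above. The median transcript was 1091 nt for tested prefoldin members, 1936 nt for CCT and 2377 nt for the HSP and co-chaperone genes. With the trend on length and GC content removed from each library, the family medians came closer together, at 0.63 for prefoldin, 0.58 for CCT and 0.51 for HSPs and co-chaperones, against −0.11 for all genes. In that fit 7 of 7 CCT, 4 of 5 prefoldin and 16 of 23 HSP and co-chaperone members were raised, with 35.6% of all genes raised and 42.8% lowered. The removal takes away any true effect of treatment that follows length or GC content. BAG3, HSF2 and DNAJB4 stood furthest above the genes of their length class, at 1.69 to 1.76 with transcripts of 2571, 2596 and 2988 nt.

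**Figure D4:**
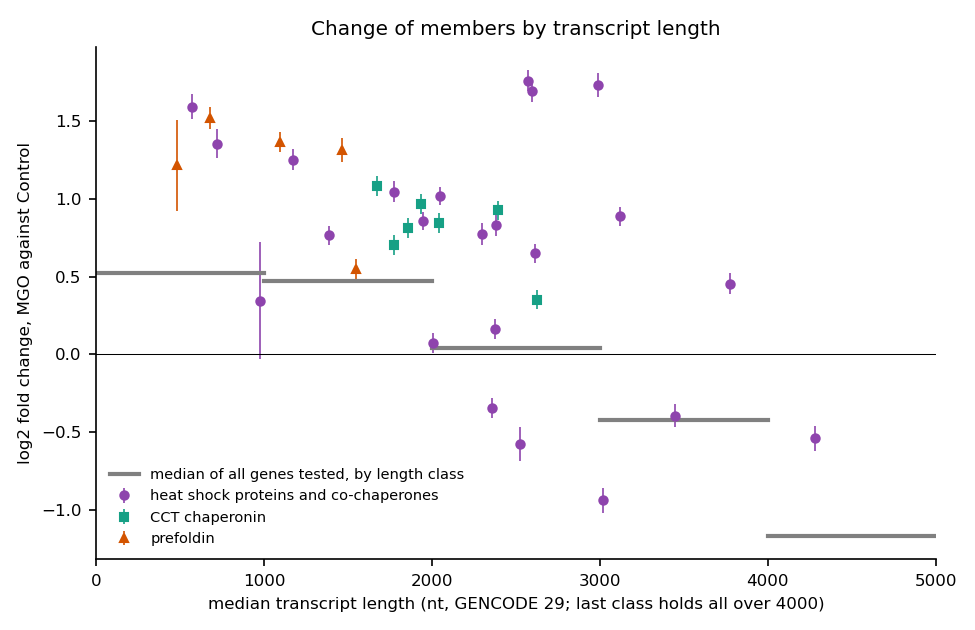
Log2 fold change of each tested member (with its standard error) against the median length of its transcripts in nt, by family, with the median of all genes tested in each length class as grey lines. Most members lie above the line of their class, and HSPA4, HSPA1B, HSPA4L and CRYAB lie below it.

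Ratios within a library were computed for 5 pairs, and each exact permutation p was 0.1, also after adjustment over the 5. Besides those of the HSP90 and HSP60 pairs, the log2 ratio of DNAJB1 to DNAJB6 was 0.72, 0.90 and 0.88 in MGO and 0.60, 0.54 and 0.53 in Control, so the inducible HSP40 rose more by 0.28. The ratio of HSPH1 to HSPA4 was lower in MGO by −0.20, at −0.99, −1.13 and −1.14 against −0.87, −0.89 and −0.91. These ratios do not take transcript length into account. With the length trend removed the order of HSPH1 (0.20) and HSPA4 (−0.49) was reversed, while DNAJB1 (0.59) stayed above DNAJB6 (0.21). In all 4 pairs the MGO and Control libraries did not overlap, as for 81.5% of single genes tested. The share among other gene pairs was not tested. The ratio of HSF1 to HSF2 cannot be interpreted because HSF1 had 1 count.

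**Figure D5:**
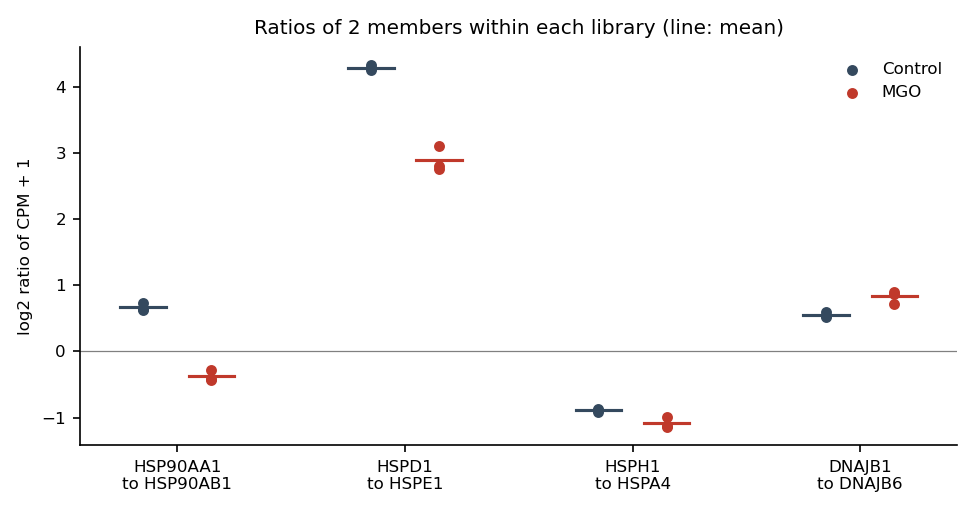
Log2 ratio of 2 members (CPM + 1) within each library for 4 pairs, with a point for each library and a line for the group mean. The ratio of HSP90AA1 to HSP90AB1 crosses 0 between the groups, and that of HSPD1 to HSPE1 is lower in all 3 MGO libraries.

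Other genes of the chaperone system were taken from 9 lists of 109 genes, of which 97 were tested. Among them 61 were raised, 28 were lowered and 8 missed the threshold (median 0.57), where 38.8% and 40.5% of all genes rose and fell. Under TMM scaling all 12 other HSP70 co-chaperones rose (median 0.98, from 0.31 to 2.21). Their values under library size alone are not given here. BAG1, a nucleotide exchange factor of HSP70, rose most, from 36.5, 35.4 and 37.1 CPM to 165, 175 and 163 CPM (4.61-fold, log2 fold change 2.21, SE 0.06), and GRPEL1, the mitochondrial exchange factor, rose 3.52-fold. Of 14 genes tested in the list of other HSP90 co-chaperones 11 rose and 2 fell. The kinase-loading factor CDC37 was at 1.27, the steroid receptor immunophilin FKBP5 at −0.67 and AHSA2P, a row named as a pseudogene, at −0.53. Among 3 other small HSPs tested 1 rose and 2 fell. The riser, HSPB8, a known partner of BAG3, went from 1.72, 1.52 and 1.63 CPM to 8.18, 9.12 and 9.37 CPM (5.48-fold, adjusted p = 2.97e-10).

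Among 28 other J domain genes 15 rose and 11 fell (median 0.25). The shares of all genes to set beside this and the counts that follow are 38.8% raised and 40.5% lowered. Values of list genes are under TMM scaling, with no length trend removed. HSCB, which serves iron-sulfur cluster assembly, and DNAJC12, with transcripts of 1034.5 and 1064 nt, rose by 1.94 and 1.64. DNAJC13 and DNAJC16, with transcripts of 7730 and 4664 nt, changed by −3.27 and −2.05. Of 5 other HSP70 and HSP110 genes 1 rose (HSPA14, 0.49) and 3 fell, with HSPA12A at −2.09. Of the 4 other heat shock factor and regulator genes 3 rose and 1 fell. HSBP1L1 and HSF2BP rose most, by 1.05 and 0.68, and HSF4 changed by −0.88 from a mean of 3.45 CPM in Control. In the prefoldin-like and R2TP complexes, which assemble larger machines with HSP90, 6 of 9 rose and 3 fell. PDRG1 rose 5.68-fold there, UXT rose by 1.71, and RPAP3 and URI1 changed by −0.43 and −0.23. Of 13 CCT and tubulin folding partners 8 rose and 3 fell, with the tubulin cofactor genes TBCC and TBCA at 1.98 and 1.32, TBCD at −0.71 and BBS10 at −0.65. Of 9 mitochondrial chaperone and protease genes 4 rose and 3 fell, with CLPP at 1.60, HTRA2 at 1.34, SPG7 at −1.40 and CLPB at −0.71.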

How the data were processed

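The authors deposited raw counts per gene for 6 polyA RNA libraries. Per the submitters' processing notes, the build was hg38 and the tools include STAR 2.7.0a and featureCounts 2.0.6, with SAMtools 1.19.2, DESeq2 1.42.0, Trim Galore 0.6.10 and FastQC 0.12.0 also listed. The sources used here give neither annotation nor strand setting nor how reads that match several places were counted, so values of genes with near-identical copies or overlapping neighbours are uncertain. No library was a copy of another: chi-square per degree of freedom was at least 3.8 between replicates. Replicate 1 stood furthest apart in each group. In MGO it had 49.3 and 54.4 against replicates 2 and 3, which had 16.5 between them. In Control it had 31.7 and 23.8, against 3.8 between replicates 2 and 3.

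The whole table was fitted with edgeR 4.0.16 (R 4.3.3): filterByExpr by group, TMM scaling, a quasi-likelihood F test between the groups and Benjamini-Hochberg adjustment at 0.05. The standard error of a log2 fold change is its size over the root of the F statistic. Spline trends (5 degrees of freedom each) on log transcript length and GC content, from GENCODE 29 on GRCh38, were removed from each library in 1 alternative. The others were RLE, upper quartile and library size scaling, other filters, DESeq2 1.42.0, limma-voom (limma 3.58.1), leaving out each library, and a block on replicate number. The edgeR fits were also run on simulated data in which most genes did not change. TMM assumes the same, so the simulation cannot check the scaling of these data, where 79.3% of genes passed the threshold.

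The members and lists were chosen with earlier results of these data known. Named were all 38 members, HSPA1A and HSPA6, and from each list up to 2 genes that rose most and 2 that fell most among those called with a mean of at least 1 CPM. HSPA12B, HSPB6 and HSPB9 fell under that minimum. Another gene that the rule names is not reported here.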

Additional observations from a re-analysis of the deposited data

How the results depend on the processing

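Library size alone gave 5673 raised genes and 1 lowered CCT member (CCT6A), and it turned HSPA8 to −0.45, HSPA9 to −0.068, HSPD1 to −0.36 and CCT6A to −0.17. Removing the trend on length and GC content turned HSPA8 to −0.18, HSPH1 to 0.20 and HSP90AA1 to 0.055. With the replicate block added to that removal these stood at −0.18, 0.20 and 0.056, and 3 prefoldin members were raised in place of 5. The replicate block alone gave 8869 raised and 9299 lowered genes and ended the call of HSPD1 (adjusted p = 0.0728), but no other member's. Whether replicate numbers pair the samples is not in the labels. Deviations of same-numbered libraries correlated at 0.041, 0.018 and 0.013, and those of differently numbered ones at −0.051 to 0.044. With 3 libraries in a group these values cannot decide it. Leaving out each library kept every member's direction and all calls but that of HSPD1, and HSPD1 also did not pass with the trend removed (adjusted p = 0.431), DESeq2 (0.0695) or with no filter (0.130). Counts of raised and lowered HSP and co-chaperone members ranged from 13 to 17 and from 4 to 7 over all alternatives. The cause of these shifts was not tested. Values of PFDN5 and CRYAB rest on 138 and 76 counts in all.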

Other observations

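Rows named as pseudogenes of members held few counts, at most 0.913% of the parent's counts among the 18 of 20 parents other than CCT6A and CCT8. For CCT6A the share was 2.97%, nearly all in CCT6P3, which was picked out after its values were seen. CCT6P3 had 2933, 2549 and 2641 counts in MGO and 694, 784 and 745 in Control, a 5.44-fold rise (log2 fold change 2.44, SE 0.09, edgeR adjusted p = 2.42e-10), while CCT6A rose 1.28-fold. CCT6P1 had 42 to 65 counts in MGO and 19 to 31 in Control. The row CCT8P1 held 289 counts in all, against 1 count for CCT8.

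As a share of all counts with no scaling, CCT members took 0.460 to 0.495% in MGO libraries and 0.371 to 0.403% in Control, and prefoldin members 0.0420 to 0.0433% and 0.0285 to 0.0316%. HSP and co-chaperone members took 0.817 to 0.902% in MGO and 0.947 to 1.02% in Control, a sum in which HSP90AA1, HSP90AB1 and HSPA8 have the highest CPM.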
